A study of Mus musculus with 18 samples.

Results

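The comparison described here is the difference between genotypes in the response of splenic B cells during the second day of LPS stimulation, that is, the change from 24 h to 48 h in *Zbtb24*-deficient (B-CKO) cells minus the change from 24 h to 48 h in control cells. Every gene with a mean of at least 1 FPKM (mapped fragments scaled to the length of the transcript and to the size of the library) over the libraries of both times was included, which left 9804 of the 16545 genes listed. The comparison used 12 of the 18 libraries, 3 from each genotype at 24 h and at 48 h, and the resting libraries were left out. B-CKO mice were *Zbtb24* loxp/loxp with 1 copy of a Cre allele active in B lineage cells, which removes the *Zbtb24* exon that holds the translation start. Control mice were *Zbtb24*+/+ littermates for which the sources give the same Cre allele, and all mice were C57BL/6. B cells were purified from whole spleen, cultured in RPMI-1640 with serum, and stimulated with LPS until RNA was extracted. The methods give 1 mouse for each replicate of splenic B cells and the labels carry the same replicate numbers at each time, so libraries of a genotype with the same number were read as those of 1 mouse. The LPS dose of these cultures and the age and sex of the mice are not given in the sources used here. Each value of the comparison, called the difference of the changes below, is on the log2(FPKM + 1) scale and is positive where the change was more positive in B-CKO cells.

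LPS, a component of the outer membrane of Gram-negative bacteria, binds TLR4 on B cells and drives them from rest through growth and repeated division, after which some become antibody-secreting plasma cells. Growing B cells first build ribosomes and replication enzymes, and the genes of mature B cell identity are turned down on the way to the plasma cell. ZBTB24 is a zinc finger transcription factor mutated in a form of the ICF syndrome of immunodeficiency and chromosomal instability, and *Cdca7* is its best known target gene.

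No gene passed the adjusted threshold of 0.05 for the difference of the changes, 0 of 9804 (0%), by limma with Benjamini-Hochberg adjustment. The smallest adjusted p was 0.0903, shared by 4 genes (*Rpl34-ps1*, *Ltb*, *Hdac7* and *Moap1*). With the mouse as a block, 1 gene was called with a positive difference, *Ddit4*, and 1 with a negative one, *Moap1* (limma, adjusted p = 0.015 for both). Before adjustment and without the block, 823 genes had a p under 0.05, of which 450 (4.59%) had a more positive change in B-CKO cells and 373 (3.8%) a more negative one. Without the B-CKO library of replicate 2 at 48 h, *Rpl34-ps1*, *Ltb* and *Mvd* passed the adjusted threshold with a positive difference and *Moap1* with a negative one, and 621 and 791 genes had an unadjusted p under 0.05. The last counts were 303 and 200 without the control library of replicate 1 at 24 h, 344 and 247 without the B-CKO library of replicate 2 at 24 h, and 230 and 150 without replicate 1 of every group. *Rpl34-ps1* alone was called without the B-CKO library of replicate 2 at 24 h, and *Gm20604*, which overlaps *Moap1*, alone without the control library of replicate 2 at 48 h. The change itself was large in both genotypes: 6296 genes (64.2%) passed the adjusted threshold between 24 h and 48 h in control cells and 6696 (68.3%) in B-CKO cells. Across genes the SD of the change was 0.46 in control and 0.50 in B-CKO cells on the log2 scale, and the SD of their difference was 0.14. The changes of both genotypes had a Pearson correlation of 0.965 across the 9804 genes, which are not independent replicates, and the genotypes shared no library.

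The precision of the comparison limits what could have been seen. The standard error of the difference of the changes had a median of 0.092 over the genes, with 3 libraries per group. The 95% interval lay within a 1.5-fold difference in either direction for 9429 genes (96.2%) and within a 2-fold difference for 9748 (99.4%). The nominal interval thus bounds most genes one at a time, although no gene was shown to be alike in both genotypes. A difference over 1.5-fold was seen in 27 genes, 15 positive and 12 negative. Of these, 11 were histone genes, a family of near-identical copies among which reads can be split, and 19 had a mean under 5 FPKM over the 12 libraries.

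**Figure D1:**
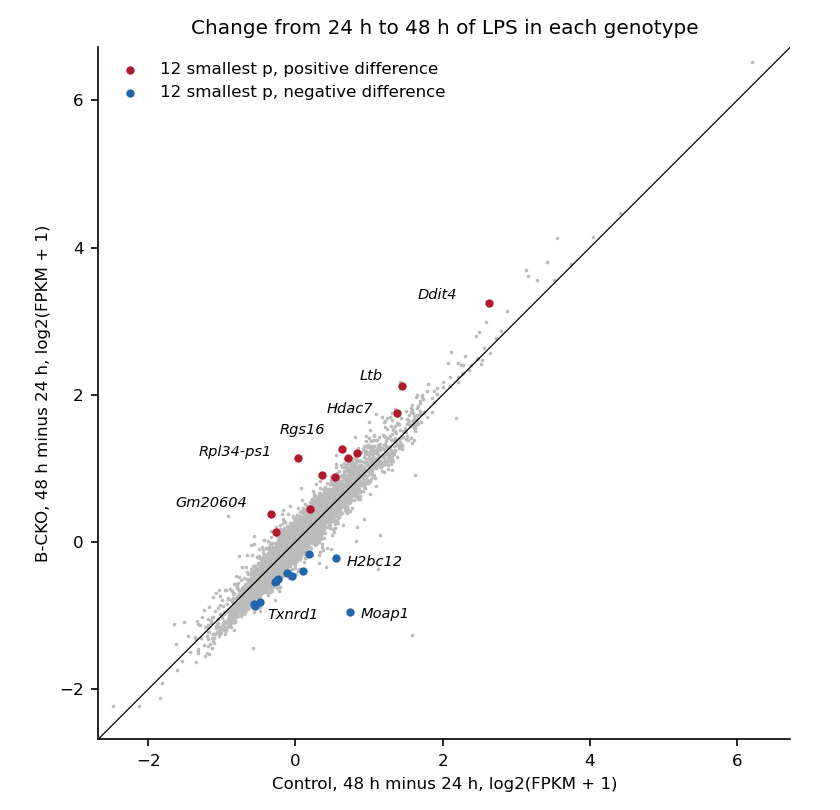
Change from 24 h to 48 h of LPS on the log2(FPKM + 1) scale in control cells (horizontal axis) and in B-CKO cells (vertical axis) for 9804 genes, with the line of equal change. The cloud follows the line (r = 0.965), and the genes with the smallest p for a positive difference (red) or a negative one (blue), 12 of each, lie at its edges.

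In most genes with an unadjusted p under 0.05, the difference between genotypes had opposite signs at 24 h and 48 h. The counts below go by sign alone, however small the difference at 1 of the times, as for *Nsdhl* at 24 h (-0.04). Among the 450 genes with a positive difference at an unadjusted p under 0.05, 343 were lower in B-CKO than in control cells at 24 h and higher at 48 h, 70 were lower at both times and 37 higher at both. Among the 373 with a negative difference, 336 were higher in B-CKO cells at 24 h and lower at 48 h, 18 were lower at both times and 19 higher at both. The median difference between genotypes went from -0.14 at 24 h to 0.10 at 48 h in the first group and from 0.11 to -0.10 in the second. These values are a description, since a large difference of the changes favours genes whose difference between genotypes turns. At single times, 136 genes (1.39%) differed between genotypes at 24 h and 111 (1.13%) at 48 h at an adjusted p under 0.05. Without the B-CKO library of replicate 3 at 48 h the count at 24 h was 262, without that of replicate 2 at 48 h the count at 48 h was 283, and without replicate 1 of every group the counts were 12 and 11.

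The libraries were close to each other within a group. The sum of FPKM over all genes ranged from 515196 to 563456 per library, and Pearson correlations between libraries of a group were between 0.994 and 0.998. The median SD between replicates was 0.054 in B-CKO cells at 24 h and 0.085 at 48 h, and 0.056 and 0.074 in control cells. The table holds no counts, so the number of fragments behind a value is not known. The listed B cell markers were abundant in every library (10 of 10 measured). They summed to 3070 to 3270 FPKM in control cells at 24 h and 3090 to 3280 at 48 h, and to 2680 to 2780 in B-CKO cells at 24 h, below every other library, and 3050 to 3400 at 48 h. Defining markers of T cells, myeloid cells and platelets were at or near 0, with *Cd3e* at no more than 0.15 FPKM, *Lyz2* at no more than 0.22, and *Pf4* and *Ppbp* at 0 in all 12 libraries. Of the T cell list only *Lck* had a mean over 1 FPKM, and the sum of the list was 12.6 to 15.5 FPKM in control cells at 24 h, 13.1 to 13.5 at 48 h, 9.95 to 11.6 in B-CKO cells at 24 h and 9.22 to 10.4 at 48 h. The sum of the NK cell list was between 0.47 and 1.42 FPKM in all libraries. The myeloid list summed to 7.03 to 8.82 FPKM in control cells at 24 h and 10.6 to 13.6 at 48 h, and to 6.74 to 7.09 and 8.19 to 10 in B-CKO cells, from *Cd68*, *Itgam* and *Adgre1*. The erythroid and platelet list summed to 8.53 to 11.7 FPKM in control cells at 24 h and 9.97 to 10.4 at 48 h, and to 7.88 to 13.1 and 11.7 to 16.7 in B-CKO cells, above control at 48 h, and *Hbb-bt* was the only one of the list with a mean over 1 FPKM. The part of these levels in the results below was not tested, and in bulk RNA fewer cells of a type and less RNA per cell cannot be told apart.

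The deleted gene and the genes known to follow it were lower in B-CKO than in control cells at 24 h and at 48 h. *Zbtb24* (gene ID 268294, chr10:41450358-41465582 on GRCm38) was at 18.28, 18.77 and 15.68 FPKM in control cells at 24 h and 13.42, 17.11 and 14.94 at 48 h. In B-CKO cells it was at 11.66, 10.39 and 10.62 at 24 h and 10.64, 9.23 and 11.34 at 48 h. All B-CKO libraries lay below all control libraries at each time, and the difference of the changes was 0.14 ± 0.13 (SE; adjusted p = 0.80). FPKM count the whole transcript, so reads from the exons that remain stay in these values.

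*Cdca7*, a partner of the chromatin remodeller HELLS, was at 80.02, 85.51 and 82.19 FPKM in control and 19.32, 22.11 and 21.18 in B-CKO cells at 24 h. At 48 h it was at 56.79, 64.62 and 49.56 in control and 14.53, 14.18 and 11.28 in B-CKO cells. It fell between the times in both genotypes, by 0.54 in control and 0.62 in B-CKO cells on the log2 scale, and the difference of the changes was -0.08 ± 0.13. *Ostc*, a subunit of the oligosaccharyltransferase that adds N-glycans, was lower in B-CKO cells by 1.31 on the log2 scale at 24 h and by 1.26 at 48 h. *Taf6*, a subunit of the general transcription factor TFIID, was lower by 1.12 and 1.05, and the splicing factor *Cdc40* by 0.67 and 0.63. The differences between genotypes of these 4 genes passed the adjusted threshold at both times, and the differences of the changes lay between -0.08 for *Cdca7* and 0.07 for *Taf6*.

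Of the list of ZBTB24 targets, ICF genes and DNA methylation enzymes, 13 of 14 genes were measured, 5 with a positive and 8 with a negative difference, at a median of -0.08, which was -0.0043 without the B-CKO library of replicate 3 at 48 h and -0.13 without that of replicate 2. *Hells* and *Uhrf1*, a remodeller and a reader of newly replicated DNA that act in the upkeep of DNA methylation, were the 2 with an unadjusted p under 0.05. Both were negative, beside 3.8% of all genes. *Hells* was at 53.63, 56.25 and 57.25 FPKM in control and 60.5, 65.5 and 65.65 in B-CKO cells at 24 h, and at 49.01, 54.79 and 46.82 against 49.79, 53.63 and 40.81 at 48 h. The 24 h libraries of the genotypes did not overlap and the 48 h libraries did, with a difference of the changes of -0.26 ± 0.11 (adjusted p = 0.58). *Uhrf1* differed by -0.22 ± 0.10, *Dnmt1* by -0.21 ± 0.11 and *Dnmt3b* by -0.19 ± 0.13. Without the B-CKO library of replicate 3 at 48 h *Dnmt3b* was at -0.070. *Dnmt3a*, *Tet2*, *Tet3* and *Cdca7l* had values between -0.16 and 0.00, none past an unadjusted p of 0.05. With single libraries left out, from 0 to 3 genes of the list had an unadjusted p under 0.05, 0 of them without replicate 1 or 2 of control cells at 24 h, replicate 2 of control cells at 48 h, or replicate 3 of B-CKO cells at either time. The count of all genes with a negative difference at that level was 200 without replicate 1 of control cells at 24 h. It was 791 without replicate 2 of B-CKO cells at 48 h, where the list had 3.

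Of the single genes, *Ltb* and *Hdac7* had the smallest p among annotated coding genes with a positive difference. *Ltb* (gene ID 16994, chr17:35194507-35196305), which encodes the membrane anchor of lymphotoxin on B cells, was at 53.75, 53.67 and 48.76 FPKM in control and 38.4, 34.34 and 30.99 in B-CKO cells at 24 h. By 48 h it was at 136.67, 149.47 and 143.77 in control and 153.33, 135.92 and 173.19 in B-CKO cells. The genotypes were apart at 24 h (adjusted p = 0.0027) and overlapped at 48 h. *Ltb* rose in both, by 1.44 in control and 2.12 in B-CKO cells on the log2 scale, with a difference of 0.68 ± 0.12 (adjusted p = 0.0903).

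*Hdac7* (gene ID 56233, chr15:97792661-97844502), a class IIa histone deacetylase used early in the B lineage, was at 22.31, 21.85 and 23.39 FPKM in control and 18.35, 17.82 and 19.35 in B-CKO cells at 24 h. The 48 h libraries were at 57.71, 62.33 and 60.94 in control and 65.14, 65.53 and 64.32 in B-CKO cells. All B-CKO libraries were below control at 24 h and above it at 48 h. The difference of the changes was 0.38 ± 0.06 (adjusted p = 0.0903).

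A second set of genes differed between genotypes mainly at 48 h. *Nsdhl* (gene ID 18194, chrX:72918521-72958528), a sterol dehydrogenase of the cholesterol pathway, was at 19.25, 17.45 and 16.73 FPKM in control and 17.07, 17.33 and 17.5 in B-CKO cells at 24 h. At 48 h it was at 29.03, 31.03 and 29.31 in control and 39.39, 37.22 and 41.27 in B-CKO cells. The genotypes overlapped at 24 h and were apart at 48 h (adjusted p = 0.0033), with a difference of the changes of 0.42 ± 0.08 (adjusted p = 0.14). *Rgs16*, a regulator of G-protein signalling that limits chemokine responses, had the same pattern at low values: 0.28 to 0.46 FPKM in all libraries at 24 h, 1.07 to 1.17 in control at 48 h and 2.17 to 2.68 in B-CKO cells at 48 h. Its difference was 0.63 ± 0.12 (adjusted p = 0.16).

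*Ddit4* and *Sesn1* encode brakes on mTORC1 that respond to stress and nutrient shortage. *Ddit4* was at 11.25, 12.86 and 14.84 FPKM in control and 8.88, 8.97 and 9.04 in B-CKO cells at 24 h, and at 71.99, 92.07 and 92.14 against 89.98, 90.94 and 100.12 at 48 h. It rose in both genotypes, by 2.63 in control and 3.25 in B-CKO cells, with a difference of 0.62 ± 0.13 (adjusted p = 0.26, and 0.015 with the mouse as a block). *Sesn1* was at 13.91, 13.23 and 13.79 in control and 12.77, 12.52 and 12.55 in B-CKO cells at 24 h, and at 19.94, 19.95 and 21 against 23.11, 23.66 and 25.64 at 48 h. Its libraries did not overlap between genotypes at either time, lower in B-CKO cells at 24 h and higher at 48 h, with a difference of 0.34 ± 0.07 (adjusted p = 0.26).

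The other genes with the smallest p and a positive difference were *Arhgap24* (0.39), a GTPase activator for Rac, *Apobec1* (0.38), a cytidine deaminase of RNA, *Il21r* (0.24), the receptor of the T cell cytokine IL-21, and *Bmf* (0.56), a BH3-only death gene. *Il21r* was at 110.86, 104.26 and 110.8 FPKM in control and 85.46, 82.61 and 87.34 in B-CKO cells at 24 h, and at 126.34, 125.21 and 124.3 against 115.36, 115.75 and 118.65 at 48 h. It stayed lower in B-CKO cells at both times, by 0.35 and then by 0.10 on the log2 scale. *Rpl34-ps1* (1.10 ± 0.18) is a ribosomal protein pseudogene. Its reads could be shared with *Rpl34*, so its values, 4.71 to 7.52 FPKM in B-CKO cells at 24 h and 11.92 to 16.76 in the other 9 libraries, are uncertain.

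*Moap1*, which encodes an adaptor of the death protein BAX, had the largest negative difference among the genes with the smallest p, -1.68 ± 0.28 (adjusted p = 0.0903, and 0.015 with the mouse as a block), at low values. It was at 0.80, 1.15 and 0.42 FPKM in control and 1.31, 1.72 and 2.15 in B-CKO cells at 24 h, and at 2.28, 1.45 and 2.18 against 0.00, 0.77 and 0.57 at 48 h. It rose in control by 0.74 and fell in B-CKO cells by 0.94 on the log2 scale (adjusted p = 0.0044 and 6.3e-04). *Moap1* (chr12:102739830-102743661) lies within the span of the predicted gene *Gm20604* (chr12:102739830-102757810), and both have the same first position. *Gm20604* had a difference of the other sign, 0.72 ± 0.15. Estimated abundances can be divided between overlapping transcripts, so neither value can be taken for a single gene.

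The remaining genes with the smallest p and a negative difference included *Prim1*, *Dscc1*, *Mcm2* and *Cdc6*, which act in DNA synthesis. *Prim1* (gene ID 19075, chr10:128015215-128030030), the catalytic subunit of DNA primase, was at 51.2, 53.39 and 55.29 FPKM in control and 62.94, 62.33 and 64.1 in B-CKO cells at 24 h. At 48 h it was at 48.47, 52.22 and 46.9 in control and 48.25, 47.19 and 45.17 in B-CKO cells. The genotypes were apart at 24 h (adjusted p = 0.024) and overlapped at 48 h, with a difference of -0.31 ± 0.07 (adjusted p = 0.26).

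*Dscc1*, a subunit of the clamp loader that couples replication to sister chromatid cohesion, was at 12.88, 12.99 and 13.19 FPKM in control and 16.03, 16.07 and 16.15 in B-CKO cells at 24 h. By 48 h it was at 9.22, 9.45 and 8.59 in control and 9.23, 8.65 and 8.26 in B-CKO cells. It fell in both genotypes, by 0.48 in control and 0.82 in B-CKO cells, and the difference was -0.34 ± 0.07 (adjusted p = 0.26). *Mcm2*, a subunit of the replicative helicase, was at 112.78, 121.04 and 121.44 in control and 131.61, 131.14 and 130.16 in B-CKO cells at 24 h, and at 97.37, 100.61 and 93.73 against 91.36, 94.28 and 84.56 at 48 h. Its difference was -0.26 ± 0.07 (adjusted p = 0.44).

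*Cdc6*, which loads that helicase at origins, was at 17.08, 18.34 and 19.1 FPKM in control and 20.34, 21.22 and 23.85 in B-CKO cells at 24 h, and at 20.28, 20.34 and 21.86 against 20.34, 18.97 and 18.45 at 48 h. The mean went up in control, by 0.19, and down in B-CKO cells, by 0.17, both past the adjusted threshold within the genotype (adjusted p = 0.017 and 0.027). The difference between those changes was -0.36 ± 0.09, with an adjusted p of 0.38. *Cdc25a* (-0.27) activates the kinases that start S phase, and *Slc29a1* (-0.28) carries nucleosides into the cell.

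*Txnrd1* (-0.32), the cytosolic thioredoxin reductase, was at 74.93 to 81.52 FPKM in all libraries at 24 h, 51.73 to 52.39 in control at 48 h and 40.53 to 46.59 in B-CKO cells at 48 h. The others were the tRNA deaminase subunit *Adat2* (-0.49), *Bola3* (-0.26), which acts in mitochondrial iron-sulfur cluster assembly, *Abhd10* (-0.41), a mitochondrial hydrolase, and the histone gene *H2bc12* (-0.77), whose copies can share reads. Taken mouse by mouse over all genes, the 3 changes of B-CKO cells lay wholly above the 3 of control cells in 748 (7.63%) and wholly below in 611 (6.23%).

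**Figure D2:**
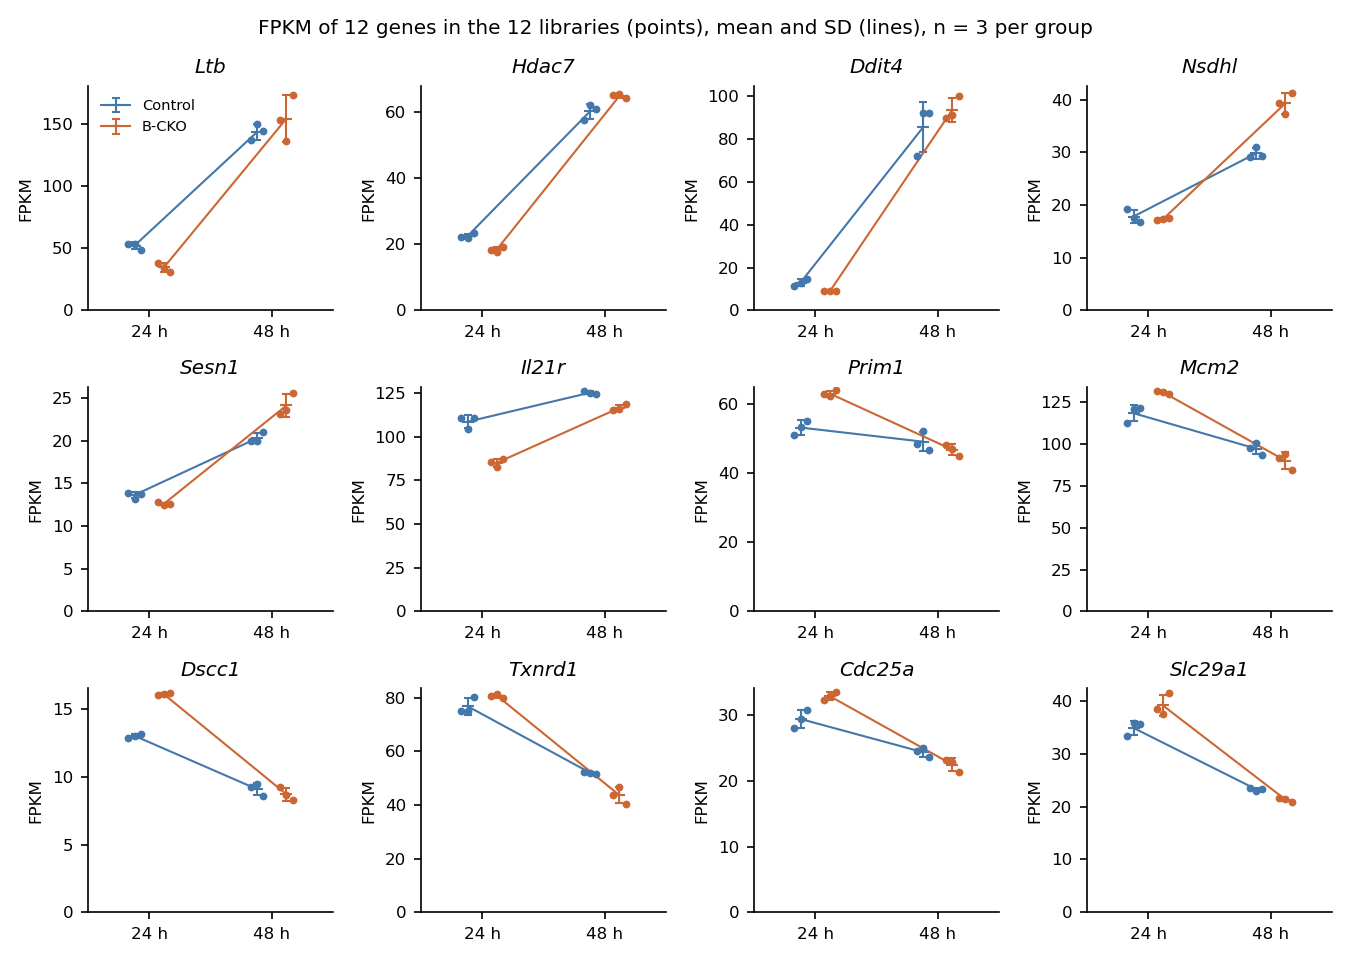
FPKM of 12 genes in the 12 libraries at 24 h and 48 h (points; blue control, orange B-CKO), with the mean of the 3 libraries of a group and its SD. *Ltb*, *Hdac7* and *Ddit4* started lower in B-CKO cells and met or passed control at 48 h, *Nsdhl* parted at 48 h, and *Prim1*, *Mcm2* and *Dscc1* started higher in B-CKO cells and met control at 48 h.

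DNA replication was the gene list with the lowest median. All 31 of its genes had a negative difference, 19 of them at an unadjusted p under 0.05 beside 3.8% of all genes, and none past the adjusted threshold. Their median was -0.20, where the median of all genes was -0.004. The list holds the origin recognition complex, the helicase with its CDC45 and GINS partners, the primase, polymerases and clamp loader, and enzymes of nucleotide supply. At 24 h, 29 of 31 were higher in B-CKO than in control cells, with a median of 0.17 on the log2 scale, and in 23 the B-CKO libraries were all above those of control, beside 11.7% of all genes. At 48 h, 26 of 31 were lower, with a median of -0.04, and in 2 the B-CKO libraries were all below those of control, beside 7.62% of all genes. Taken mouse by mouse, the changes of B-CKO cells lay wholly below those of control in 14, beside 6.23% of all genes. The median change of the list was -0.04 in control and -0.23 in B-CKO cells.

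Its mean level per library shows the same. At 24 h it was 5.71, 5.77 and 5.82 on the log2 scale in control and 5.88, 5.90 and 5.98 in B-CKO cells, and at 48 h 5.78, 5.81 and 5.74 against 5.77, 5.78 and 5.65. The B-CKO libraries were above every control library at 24 h and overlapped them at 48 h, where the B-CKO library of replicate 3 was the lowest of the 12. The most negative members were *Cdc6* (-0.36) and *Orc1* (-0.31), a subunit of the origin recognition complex. The least negative were the polymerase subunits *Pola1* (-0.09) and *Pold1* (-0.05). Without B-CKO replicate 3 the median of the list was -0.12, and 29 of 31 genes were negative. With single libraries left out, from 14 to 23 genes had an unadjusted p under 0.05. The count was 14 without the control library of replicate 1 at 24 h, beside 200 of all genes with a negative difference. It was 23 without the B-CKO library of replicate 2 at 48 h, beside 791.

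The promoters of these genes were read because S-phase genes are classical targets of the E2F factors. In a window from 250 bases before to 50 after a transcript start (RefSeq, GRCm38.p6), which can lie inside the span of the gene, the letters TTTCCCGC, TTTCGCGC, TTTGCCGC or TTTGGCGC on either strand were in 12 of the 25 replication genes with a window (48%), and in 423 of 8005 of all tested genes with one (5.28%). The share was 3 of 16 (18.8%) for the ribosome biogenesis genes and 0 of 13 for the B cell identity genes. For the E-box CACGTG the shares were 12% of the replication genes, 25% of the ribosome biogenesis genes and 12.5% of all genes. *Prim1* and *Mcm2* held none of the E2F-like letters in their windows. The 12 replication genes that held them included the most negative members of the list, *Cdc6* and *Orc1*, and the least negative, *Pola1* and *Pold1*. A match is only a match of letters, and these data hold no measurement of binding. The 250 bases before the start are shown for the 3 replication genes whose upstream bases hold the letters and whose window is set at the first position of the gene. They run 5′ to 3′ on the strand of the gene, with each match in capitals, and overlapping matches run together.
Mcm6 (chr1:128359706-128359955, minus strand): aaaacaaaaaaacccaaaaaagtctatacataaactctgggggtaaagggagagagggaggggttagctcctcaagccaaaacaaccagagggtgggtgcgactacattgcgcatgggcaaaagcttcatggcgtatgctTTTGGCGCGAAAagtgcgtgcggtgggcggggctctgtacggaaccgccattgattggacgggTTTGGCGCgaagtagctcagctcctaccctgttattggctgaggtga
Rfc3 (chr5:151651209-151651458, minus strand): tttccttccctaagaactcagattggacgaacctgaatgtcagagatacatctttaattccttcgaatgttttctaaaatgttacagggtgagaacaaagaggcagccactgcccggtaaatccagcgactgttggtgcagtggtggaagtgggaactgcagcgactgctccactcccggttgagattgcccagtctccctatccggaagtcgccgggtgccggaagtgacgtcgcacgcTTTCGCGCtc
Gins3 (chr8:95633309-95633558, plus strand): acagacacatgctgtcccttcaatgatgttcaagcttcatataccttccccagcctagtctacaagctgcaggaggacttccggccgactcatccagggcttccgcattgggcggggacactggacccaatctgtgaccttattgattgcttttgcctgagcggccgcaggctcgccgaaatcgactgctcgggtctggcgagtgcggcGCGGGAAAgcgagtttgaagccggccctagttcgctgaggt

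The match lies 10 bases before the start in *Rfc3*, a subunit of the clamp loader, and 41 bases before it in *Gins3*, a subunit of the GINS complex. *Mcm6*, which encodes a subunit of the same helicase as *Mcm2*, holds 3 matches. In the expression data the differences of the changes were -0.20 ± 0.07 for *Mcm6*, -0.23 ± 0.08 for *Rfc3* and -0.17 ± 0.08 for *Gins3*, with the B-CKO libraries of *Mcm6*, *Rfc3* and *Gins3* all above control at 24 h and overlapping it at 48 h.

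Ribosome biogenesis genes, which make and process ribosomal RNA in the nucleolus, were 20 of 20 negative, 8 at an unadjusted p under 0.05 beside 3.8% of all genes, with a median of -0.18. Their median change from 24 h to 48 h was -0.74 in control and -0.91 in B-CKO cells. At 24 h 19 of 20 were higher in B-CKO cells, and at 48 h 18 of 20 were lower. *Utp20*, of the complex that processes the small subunit RNA, was at 23.38, 24.29 and 23.58 FPKM in control and 25.6, 26.61 and 25.82 in B-CKO cells at 24 h, and at 10.04, 10.64 and 9.39 against 8.28, 10.16 and 6.97 at 48 h. It fell by 1.17 in control and by 1.53 in B-CKO cells, with a difference of -0.36 ± 0.12 (adjusted p = 0.53). *Rrp12*, which helps export ribosomal subunits, differed by -0.30 ± 0.12. Nucleophosmin, *Npm1*, and fibrillarin, *Fbl*, the most abundant nucleolar proteins of the list, differed least from 0 at -0.04 and -0.06. With single libraries left out the count at an unadjusted p under 0.05 ranged from 3, without the control library of replicate 2 at 48 h, to 14, without that of replicate 3. All genes with a negative difference at that level numbered 287 and 559 in those fits.

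Mitosis genes had a median change of 1.30 in control and 1.14 in B-CKO cells on the log2 scale. Of 26 genes, 22 had a negative difference and 4 a positive one, at a median of -0.11. Only cyclin A, *Ccna2*, had an unadjusted p under 0.05, with a negative difference, beside 3.8% of all genes. *Ccna2* was at 44.6, 47.05 and 52.58 FPKM in control and 48.75, 51.26 and 56.16 in B-CKO cells at 24 h, and at 119.29, 121.16 and 119.06 against 113.94, 117.91 and 107.42 at 48 h. *Mki67*, the proliferation antigen Ki-67, differed by -0.20 ± 0.17, while the kinetochore genes *Ndc80* and *Cenpa* were at 0.16 and 0.15. Without B-CKO replicate 3 the median was -0.005 and 12 of 26 genes were positive, so the size of this median rests on that replicate. Without the control library of replicate 3 at 24 h, 9 genes had a negative difference at an unadjusted p under 0.05, beside 341 of the 9804 genes.

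B cell identity genes went the other way. All 22 had a positive difference, 10 at an unadjusted p under 0.05 beside 4.59% of all genes, with a median of 0.16. At 24 h 21 of 22 were lower in B-CKO cells (median -0.18) and in 11 all B-CKO libraries were below those of control, beside 15.8% of all genes. At 48 h 12 were higher and 10 lower (median 0.02). All B-CKO libraries were then above control in 2, beside 5.96% of all genes, and below in 1, beside 7.62%. The mean of the list per library was 6.22, 6.12 and 6.15 on the log2 scale in control and 6.01, 5.93 and 5.93 in B-CKO cells at 24 h, and 6.18, 6.16 and 6.21 against 6.10, 6.14 and 6.21 at 48 h. The B-CKO libraries were below every control library at 24 h, and overlapped control at 48 h.

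The most positive members were *Fcer2a*, which encodes CD23 of follicular B cells, and *Klf2*, a quiescence and homing factor. *Fcer2a* was at 105.23, 104.84 and 89.71 FPKM in control and 89.81, 83.3 and 77.11 in B-CKO cells at 24 h, and at 138.52, 136.05 and 115.78 against 137.35, 134.07 and 142.27 at 48 h. Its difference was 0.34 ± 0.11 (adjusted p = 0.52), and that of *Klf2* was 0.31 ± 0.14. The B lineage factors *Pax5* and *Ebf1* were at the low end with 0.02 and 0.04. The list of B cell markers, which shares 7 of its 10 measured genes with B cell identity, was positive in 10 of 10. With single libraries left out the count of identity genes at an unadjusted p under 0.05 was lowest at 6, without replicate 1 of control or replicate 2 of B-CKO cells at 24 h. All genes with a positive difference at that level numbered 303 and 344 in those fits.

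**Figure D3:**
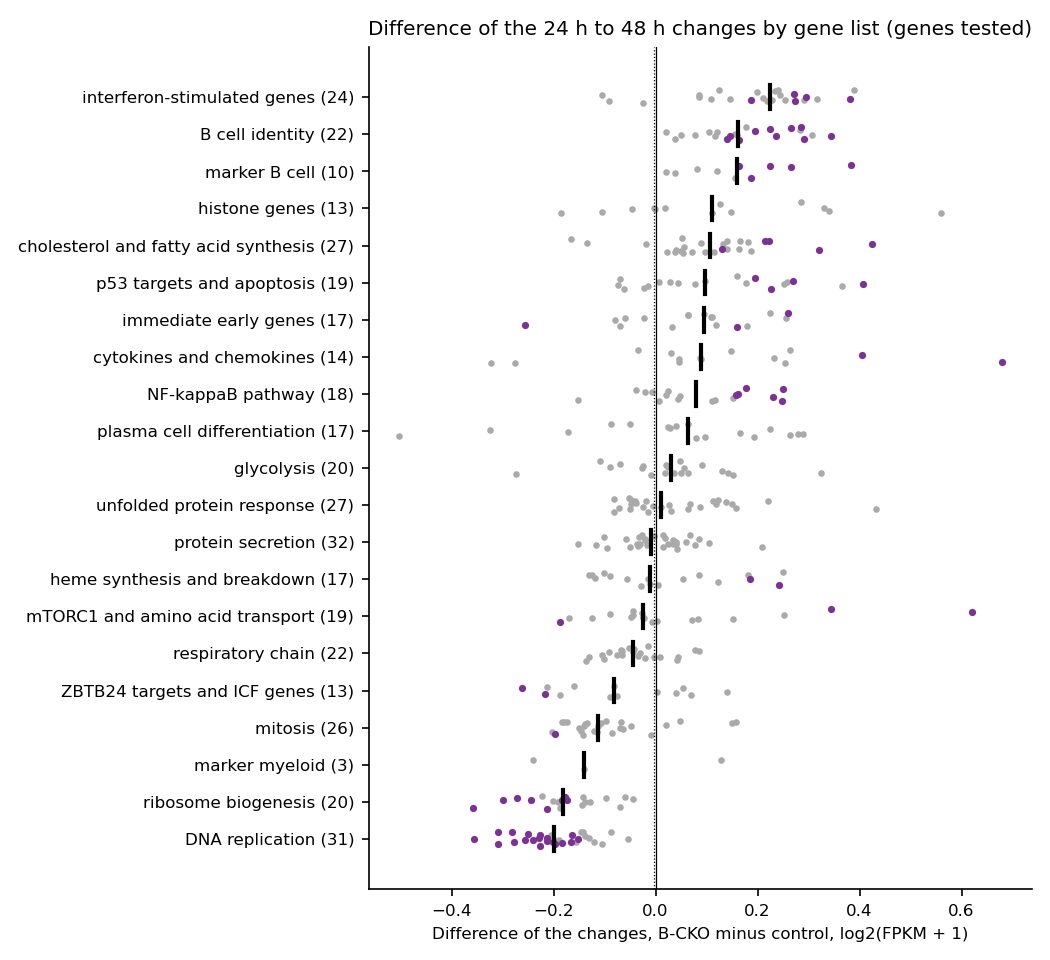
Difference of the changes (B-CKO minus control, log2(FPKM + 1)) for each gene of the 21 lists with 3 or more genes tested. Purple points have an unadjusted p under 0.05, the black bar is the median of the list, and the dotted line is the median of all genes; DNA replication (-0.20) and interferon-stimulated genes (0.22) are at the ends.

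Interferon-stimulated genes had the highest median, 0.22, with 21 of 24 positive and 5 at an unadjusted p under 0.05 beside 4.59% of all genes. Their median change between the times was -0.77 in control and -0.54 in B-CKO cells. At 24 h 18 of 24 were lower in B-CKO cells, and at 48 h 17 of 24 were higher. *Irf7*, the factor that amplifies type I interferon, was at 48.63, 43.09 and 43.88 FPKM in control and 29.56, 28.94 and 32.89 in B-CKO cells at 24 h. At 48 h it was at 23.07, 18.25 and 21.44 in control and 15.68, 15.82 and 25.25 in B-CKO cells, with the B-CKO library of replicate 3 above the other 2. Its difference was 0.39 ± 0.19, and 0.17 without that library. *Bst2*, which encodes the virus tether tetherin, fell by 0.72 in control and 0.34 in B-CKO cells, with a difference of 0.38 ± 0.11 (adjusted p = 0.44). *Oasl1* and *Ifit1* were negative, at -0.11 and -0.09. The mean of the list in B-CKO cells at 48 h was 3.69, 3.88 and 4.06 on the log2 scale, against 3.80 to 3.83 in control, so that 1 B-CKO library was below control and 2 above it. Without the B-CKO library of replicate 3 at 48 h the median of the list was 0.09. It was then not the highest, as that of B cell identity was at least 0.145 with any library left out. In that fit 3 interferon-stimulated genes had a positive and 1 a negative difference at an unadjusted p under 0.05, beside 358 and 256 of the 9804 genes. Without the B-CKO library of replicate 1 at 48 h 16 had a positive one, beside 480. With the mouse as a block 11 had, beside 536 of all genes.

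Genes of cholesterol and fatty acid synthesis had median changes of 0.71 in control and 0.82 in B-CKO cells. Of 27 genes, 24 had a positive difference, 5 at an unadjusted p under 0.05 beside 4.59% of all genes, with a median of 0.11. The list was higher in B-CKO cells at 24 h (21 of 27, median 0.07) and at 48 h (26 of 27, median 0.18), where DNA replication, ribosome biogenesis and mitosis had a positive median at 24 h and a negative one at 48 h. Besides *Nsdhl*, the most positive was *Mvd*, the decarboxylase that makes isopentenyl diphosphate. *Mvd* was at 33.86, 33.47 and 34.08 FPKM in control and 35.06, 34.25 and 36.39 in B-CKO cells at 24 h, and at 63.69, 67.04 and 65.01 against 88.99, 75.27 and 91.9 at 48 h. The libraries did not overlap at either time, and the difference of the changes was 0.32 ± 0.09 (adjusted p = 0.44). Fatty acid synthase, *Fasn*, was negative, at -0.17. The count of positive differences at an unadjusted p under 0.05 was 11 without the control library of replicate 2 at 48 h, beside 411 of all genes. It was 3 without replicate 1 of control or replicate 2 of B-CKO cells at 24 h, beside 303 and 344.

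NF-kappaB genes, the subunits, inhibitors and targets of the pathway that LPS activates, were positive in 14 of 18, 6 of them at an unadjusted p under 0.05 beside 4.59% of all genes, with a median of 0.08. *Birc3*, an inhibitor of apoptosis induced by the pathway, was at 62.53, 57.43 and 59.2 FPKM in control and 54.47, 51.2 and 54.41 in B-CKO cells at 24 h, and at 52.58, 57.87 and 57.23 against 60.96, 60.26 and 57.31 at 48 h. Its difference was 0.25 ± 0.07, and that of *Bcl3*, an atypical inhibitor, was 0.25 ± 0.10. *Nfkbid* (-0.15) and *Nfkbib* (-0.04) were the most negative. Without replicate 1 of control cells at 48 h or replicate 3 of B-CKO cells at 24 h, 3 of these genes had an unadjusted p under 0.05. In those fits 373 and 391 of all genes had a positive difference at that level. Genes of p53 and apoptosis were positive in 14 of 19, 4 at an unadjusted p under 0.05 beside the same 4.59%, with a median of 0.10. *Trp53inp1*, a p53 target, was at 5.49, 4.29 and 4.87 FPKM in control and 3.07, 3.12 and 3.21 in B-CKO cells at 24 h, apart from each other, and at 12.31, 12.24 and 15.75 against 11.87, 12.67 and 12.67 at 48 h, overlapping. Its difference was 0.41 ± 0.13, that of the death receptor gene *Fas* was 0.36 ± 0.17, and the survival gene *Bcl2l1* was at -0.07. Without the replicate 3 library of either genotype at 24 h or of B-CKO cells at 48 h, 2 genes of this list had an unadjusted p under 0.05. All genes with a positive difference at that level numbered 404 without that of control and 391 without that of B-CKO cells at 24 h, and 358 without that of B-CKO cells at 48 h.

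**Figure D4:**
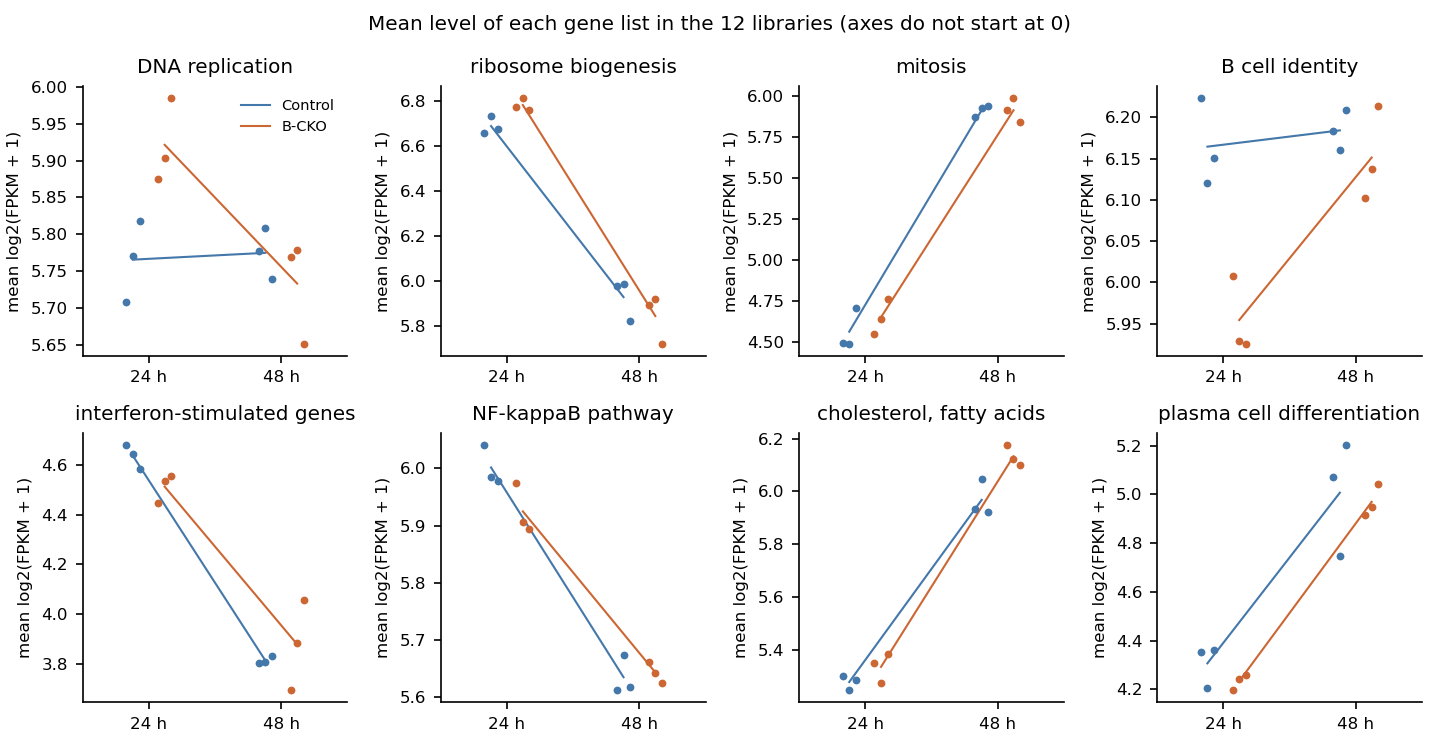
Mean log2(FPKM + 1) of 8 gene lists in each of the 12 libraries at 24 h and 48 h (points; blue control, orange B-CKO), with lines between the means of 3 libraries; the axes do not start at 0. The 24 h libraries of DNA replication and B cell identity are apart between genotypes, in opposite directions, and the 48 h libraries overlap.

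Immediate early genes, 17 of 22 measured, were positive in 12 and negative in 5, with a median of 0.10. At an unadjusted p under 0.05, 2 had a positive and 1 a negative difference, beside 4.59% and 3.8% of all genes. *Junb* was at 0.26 ± 0.07 and *Ier3* at 0.26 ± 0.16. *Egr3*, a target of antigen receptor signals, was the only one of the 5 negative genes with an unadjusted p under 0.05, at 10.08, 9.16 and 8.88 FPKM in control and 8.57, 7.88 and 8 in B-CKO cells at 24 h, and at 7.15, 7.28 and 6.45 against 4.82, 5.08 and 4.73 at 48 h. It was lower in B-CKO cells at both times, past the adjusted threshold at 48 h (adjusted p = 0.0038), and its difference of the changes was -0.26 ± 0.09. Of the cytokine genes, 14 of 18 were measured, 11 positive, with a median of 0.09. After *Ltb*, *Il12a*, a subunit of IL-12 and IL-35, was the most positive at 0.40 ± 0.14, and *Il6* (-0.32 ± 0.17) and *Ccl22* (-0.28 ± 0.25) were the most negative. Without the B-CKO library of replicate 3 at 48 h *Il6* was at -0.18.

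The plasma cell list, 17 of 18 measured, had no member at an unadjusted p under 0.05. It was positive in 12 and negative in 5, with a median of 0.06, which was -0.10 without the control library of replicate 2 at 48 h. Without that library 3 genes had a negative difference at an unadjusted p under 0.05, beside 287 of the 9804 genes. Without the control library of replicate 3 at 48 h 6 had a positive one, beside 553 of all genes. With the mouse as a block 4 had a positive and 1 a negative one, beside 536 and 372 of all genes. *Prdm1*, which encodes the factor BLIMP1 that drives the plasma cell programme, was at 7.66, 5.35 and 8.02 FPKM in control and 6.17, 5.87 and 6.26 in B-CKO cells at 24 h, and at 14.73, 12.35 and 22.25 against 16.91, 18.27 and 17.58 at 48 h. The control libraries at 48 h spanned all of B-CKO, and the difference of the changes was 0.29 ± 0.22, which was 0.12 without the control library of replicate 2 at 48 h and 0.52 without that of replicate 3. *Xbp1*, the factor of the secretory programme, was at 0.02 ± 0.19, with 130.94, 88.77 and 145.42 FPKM in control and 104.83, 104.05 and 124.26 in B-CKO cells at 48 h. *Irf4* was at -0.09 ± 0.09 and the J chain gene *Jchain* at 0.10 ± 0.30.

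The chaperone gene *Fkbp11* (-0.50 ± 0.28) and *Sdc1*, which encodes CD138 (-0.32 ± 0.20), were the most negative, both at low FPKM at 24 h. *Fkbp11* was at -0.30 without the control library of replicate 3 at 48 h and at -0.73 without that of replicate 2. Further members were *Ly6c2* (-0.17), *Creld2* (-0.05), *Slamf7* (0.03), *Mzb1* (0.04), *Ell2* (0.06), *Tigit* (0.08), *Pou2af1* (0.17), *Cd38* (0.19), *Derl3* (0.22) and *Il10* (0.26).

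The unfolded protein response (27 genes) had a median of 0.01, from the chaperone *Hspa5* at -0.08 to the stress gene *Trib3* at 0.43 ± 0.25, and protein secretion (32 genes) one of -0.01, from the translocon gene *Sec61g* at -0.15 to the coat gene *Sec24d* at 0.21 (0.039 without the control library of replicate 2 at 48 h and 0.39 without that of replicate 3). Neither held a gene with an unadjusted p under 0.05. Without the control library of replicate 2 at 48 h, 3 unfolded protein response genes had a negative and 2 a positive difference at that level. In that fit 2 secretion genes had a negative one, beside 287 negative and 411 positive of all genes, and the median of the secretion list was -0.049. Without the control library of replicate 3 at 48 h that median was 0.041 and 2 secretion genes had a positive difference at that level, beside 553 of all genes. Glycolysis genes had a median change of 1.57 in control and 1.53 in B-CKO cells, and the median difference was 0.03, from hexokinase *Hk2* (-0.27 ± 0.14, and -0.13 without the B-CKO library of replicate 3 at 48 h) to the lactate transporter *Slc16a3* (0.32 ± 0.31). Respiratory chain genes had a median of -0.04, with 17 of 22 negative and no unadjusted p under 0.05 (a median of -0.021 with 12 negative without the B-CKO library of replicate 2 at 48 h, and -0.067 without that of replicate 1), from *Sdhb* (-0.14) to *Sdhc* (0.08).

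Heme synthesis and breakdown genes were positive in 8 and negative in 9 of 17, with a median of -0.01. *Ucp2*, a mitochondrial carrier kept on that list, was the clearest of them at 449.47, 442.95 and 455.07 FPKM in control and 398.52, 387.97 and 403.08 in B-CKO cells at 24 h, and at 511.21, 550.94 and 548.53 against 550.61, 530.19 and 602.07 at 48 h. The genotypes were apart at 24 h and overlapped at 48 h, and the difference was 0.24 ± 0.07 (adjusted p = 0.48). *Uros*, an enzyme of heme synthesis, was at 0.25 ± 0.13, and at 0.13 without the control library of replicate 2 at 48 h. The transporter *Abcb10* and the synthesis enzyme *Alad* were at -0.13 and -0.12. The mTORC1 list had a median of -0.03, with *Ddit4* and *Sesn1* at its upper end and the amino acid transporter *Slc7a5* (-0.19 ± 0.08) and the arginine sensor *Castor1* (-0.17 ± 0.18) at its lower end. The 13 measured genes of the histone list had a median of 0.11 (0.026 without the B-CKO library of replicate 1 at 24 h and 0.18 without that of replicate 2 at 48 h), from *H1f4* (-0.19 ± 0.34) to *H2ac8* (0.56 ± 0.29), with reads that can be split among copies. None had an unadjusted p under 0.05. With the mouse as a block 3 had, where 536 of all genes had a positive and 372 a negative difference at that level. Histone genes outside that list included *H2bc12* (-0.77), *H3c11* (-1.04), *H4c3* (-0.76) and *H2bu2* (0.63), singled out after their values were seen, all at an unadjusted p under 0.05.

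**Figure D5:**
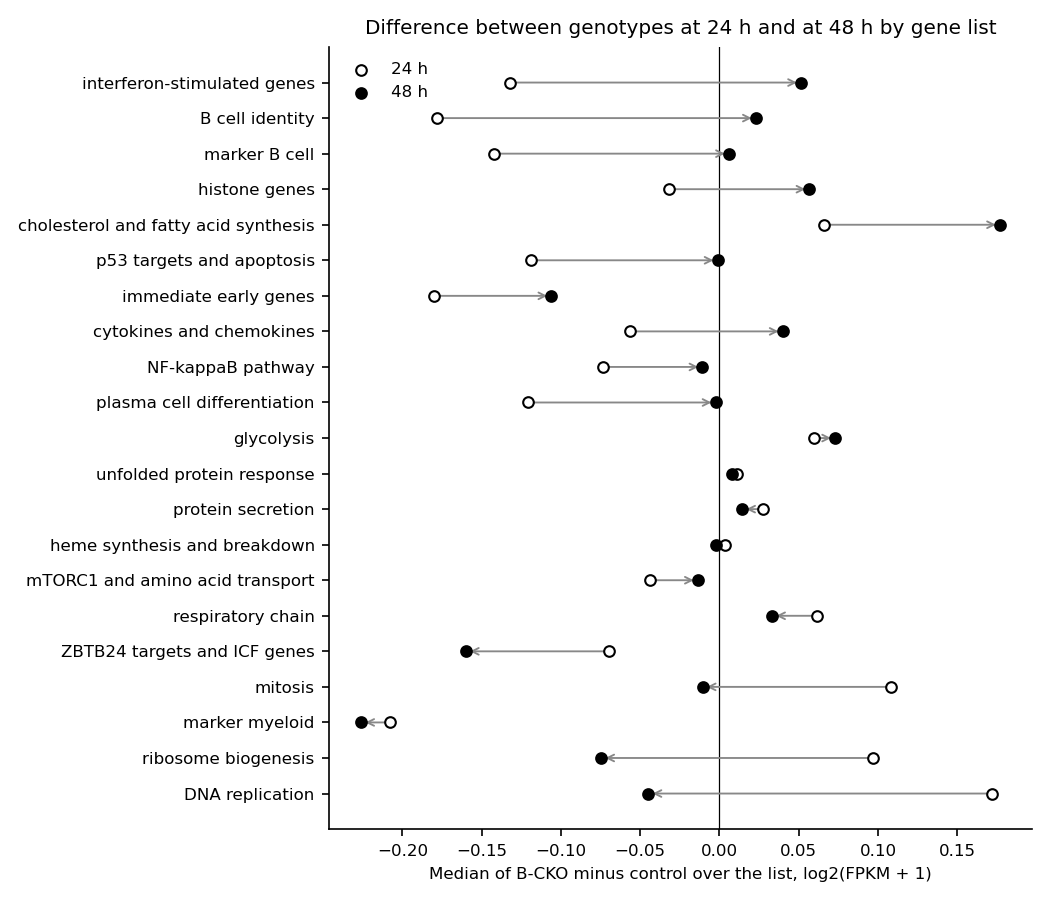
Median over each gene list of the difference between genotypes (B-CKO minus control, log2(FPKM + 1)) at 24 h (open circles) and 48 h (filled circles), in the order of the median difference of the changes. DNA replication went from 0.17 to -0.04, B cell identity from -0.18 to 0.02, and cholesterol and fatty acid synthesis from 0.07 to 0.18.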

How the data were processed

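Libraries of RNA from splenic B cells were assigned to genotype, replicate and day from the sample labels, and days 1 and 2 are 24 h and 48 h of LPS. The authors mapped reads to mm10 with bowtie2 and deposited FPKM with 2 decimals, made with Cufflinks and RSEM; versions and the annotation are not given in the sources used here. The submitters' processing notes also name BWA and DESeq2, the labels name an MGI2000 instrument and the methods HiSeq or Novaseq. FPKM are scaled to transcript length and library size, hold no counts, and leave the depth unknown, so the DESeq2 test of the study could not be used. Symbols and positions were taken from RefSeq (GRCm38.p6) for 16512 of 16545 gene IDs.

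From the deposited FPKM, log2(FPKM + 1) was fitted with limma 3.58.1 (R 4.3.3; lmFit, eBayes with a trend) to 4 group means of 12 libraries, with genes at a mean of at least 1 FPKM and Benjamini-Hochberg adjustment over 9804 genes. The fit was tested on simulated data. P-values are two-sided and measure only the spread between these libraries. A pseudocount of 1 understates the change of low genes. Named genes are those past an adjusted p of 0.05, the 12 smallest p in each direction, all measured genes of the ZBTB24 and plasma cell lists, and the 2 most positive and 2 most negative of every other list. A few genes that these rules name are not reported here. The genes and the gene lists were chosen with earlier results of these data known, and lists were described by counts and medians, with no test. The methods give 1 mouse for each replicate, so same-numbered libraries of a genotype were read as 1 mouse; their deviations at 24 h and 48 h correlated at -0.05, 0.16 and 0.06 in control and 0.11, 0.18 and 0.12 in B-CKO cells. The fit reported has no block, as the study states none, and the fit with the mouse as a block is an alternative. Alternatives were another pseudocount, filter, scaling, fit and block, and libraries left out. Figures were drawn with Python 3.11.15 and matplotlib 3.10.9.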

Additional observations from a re-analysis of the deposited data

Results flagged for a closer look

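*Moap1* was singled out because its libraries moved in opposite directions: all 3 at 48 h were above all 3 at 24 h in control cells, with a mean change of 0.74 on the log2 scale, and all 3 were below in B-CKO cells, with a mean change of -0.94. The difference of the changes was -1.68, with an adjusted p of 0.0903 by limma, so the test of the difference did not pass the threshold, and of 0.015 with the mouse as a block. The values were at most 2.28 FPKM, and the gene overlaps *Gm20604*, whose difference had the other sign.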

How the results depend on the processing

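The count of genes past the adjusted threshold was 0 in both directions with a pseudocount of 0.1, without a filter, with a mean of at least 5 FPKM, after rescaling to TPM, with median ratio scaling, in a fit of all 18 libraries, and with eBayes without a trend or robust. With the replicate number as a block it was also 0 in both directions (smallest adjusted p = 0.0902). With the mouse (genotype and number together) as a replicate block, 1 gene was called with a positive difference, *Ddit4*, and 1 with a negative one, *Moap1* (adjusted p = 0.015 for both), and the block changed no other call of the difference of the changes. The correlation of same-numbered libraries stands against a mean of -0.05 for other numbers, and 9 of 12 libraries correlated best with their own number. Same-numbered libraries of different genotypes, which are different mice, correlated at 0.105, 0.209 and 0.092 at 24 h. At 48 h they correlated at -0.040, 0.223 and 0.229. These correlations thus do not show that a number stands for 1 mouse, and what the number stands for was not tested. With libraries left out, the number of calls ranged from 0 to 3 for positive and from 0 to 1 for negative differences. The smallest adjusted p ranged from 0.015 to 0.26 over these settings and from 0.0060 to 0.81 with libraries left out. In the fit of all 18 libraries 120 genes had a positive and 75 a negative difference at an unadjusted p under 0.05, and 9 and 11 genes differed between genotypes at 24 h and 48 h. Those gaps numbered 35 and 70 without a filter, and 229 at 24 h with the number as a block. Where a fit without a library left 2 in a group, the spread was pooled over groups.

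No scaling moved the median difference of all genes by more than 0.011. Of the 21 lists, 15 kept the sign of their median in every setting run, among them DNA replication, ribosome biogenesis, B cell identity, interferon-stimulated genes and cholesterol synthesis. Settings for the lists other than scaling, the mouse block and leaving out a mouse, and settings for counts at single times and for changes that do not overlap, were chosen after seeing the data. With libraries left out the median of a list ranged from -0.10 to 0.17 for plasma cell differentiation, -0.062 to 0.051 for the unfolded protein response, -0.040 to 0.031 for heme, -0.046 to 0.015 for mTORC1, -0.053 to 0.082 for glycolysis, 0.0036 to 0.14 for immediate early genes, 0.043 to 0.14 for NF-kappaB, 0.091 to 0.32 for interferon-stimulated genes, 0.043 to 0.17 for cytokines, -0.14 to -0.0043 for the ZBTB24 list, -0.059 to 0.041 for protein secretion, -0.076 to -0.019 for the respiratory chain, -0.19 to -0.0050 for mitosis, 0.026 to 0.18 for histone genes and -0.30 to -0.014 for the 3 myeloid markers. With libraries, mice or replicate numbers left out, values of both signs were seen for 33 of the 124 named genes, and the range was -0.19 to 0.17 for *Xbp1*, -0.081 to 0.10 for *Pax5*, -0.46 to 0.065 for *H1f4*, -0.070 to 0.056 for *Dnmt3a*, -0.091 to 0.16 for *Slamf7*, -0.071 to 0.66 for *Slc16a3* and -0.10 to 0.024 for *Lck*. The range was -0.23 to 0.31 for *Jchain*, -0.17 to 0.018 for *Ifit1*, -0.52 to 0.24 for *Ly6c2*, -0.21 to 0.041 for *Creld2*, -0.19 to 0.038 for *Cdca7*, -0.022 to 0.11 for *Ostc* and -0.11 to 0.15 for *Mzb1*. It ran from -0.10 to 0.20 for *Ell2*, -0.044 to 0.17 for *Tigit*, -0.17 to 0.025 for *Bcl2l1*, -0.37 to 0.81 for *H3c2*, -0.075 to 0.031 for *Nfkbib*, -0.19 to 0.010 for *Tet3* and -0.17 to 0.038 for *Pola1*. It was -0.10 to 0.0011 for *Npm1*, -0.015 to 0.16 for *Sdhc*, -0.011 to 0.13 for *Taf6*, -0.14 to 0.012 for *Cdca7l*, -0.24 to 0.032 for *Pfkl*, -0.36 to 0.0025 for *Mki67* and -0.0012 to 0.42 for *Ier3*. The last ranges were -0.32 to 0.0025 for *Tet2*, -0.18 to 0.00033 for *Irf4*, -0.033 to 0.83 for *Trib3*, -0.28 to 0.0027 for *Nfkbid* and -0.11 to 0.32 for *Adgre1*. Among the other settings the sign turned for *Dnmt3a* alone, at -0.0089 after rescaling to TPM and -0.00089 with median ratio scaling. The cause of these turns was not tested.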
